A study of Mus musculus with 12 samples.

Results

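This account follows 10 genes that bring iron into cells, store it, release it or sense it: Tfrc, Slc11a2, Steap3, Slc11a1, Fth1, Ftl1, Ncoa4, Slc40a1, Aco1 and Ireb2. They were taken from the deposited table by gene symbol, and the values of all transcripts of a gene were summed. They are 10 of the 46262 genes in the table. All 10 passed the filter for testing, a minimum of 1 TPM in 3 or more libraries, as did 12419 genes in all. The RNA came from primary microglia, the resident macrophages of the brain, of wild-type mice. They came out of mixed glia grown from cerebellum or forebrain and spent 24 hours with IL-34 (100 ng/ml) or CSF-1 (20 ng/ml), cytokines that share the Csf1r receptor. The 4 groups of 3 libraries were cerebellar IL-34 cells, forebrain IL-34 cells, cerebellar CSF-1 cells and forebrain CSF-1 cells, and per the design text the cultures were independent. Every group had a ligand and the doses differed, so ligand and dose cannot be told apart. The name of the deposited table calls the microglia neonatal, and the sources used here do not state the strain or sex of the mice or a more exact age.

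Cells take up most of their iron bound to transferrin, through the transferrin receptor. After uptake a reductase and a divalent metal transporter move the iron out of the endosome, ferritin shells of heavy and light chains store it, and ferroportin, the only known iron exporter of mammals, releases it. The iron regulatory proteins encoded by Aco1 and Ireb2 bind a hairpin in messenger RNA, the iron-responsive element, when iron is scarce. Bound in the 5′ UTR they block translation, as in ferritin and ferroportin, and bound in the 3′ UTR they protect the message from decay, as in the transferrin receptor. Microglia clear dying cells and myelin and are among the cells of the brain that store iron in ferritin.

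The iron-responsive elements of the 10 genes are shown first because they join the uptake, storage and export genes to the 2 sensors. In each line the bulged C and the loop with the base after it are in capitals, and the bases on either side form the stem. The 4 sites in the 3′ UTR of Tfrc and the single sites in the 5′ UTRs of Fth1, Ftl1 and Slc40a1 had all 5 pairs of the upper stem and at least 4 of 5 of the lower stem. The sequences and positions are those of GENCODE M21 transcripts on GRCm38.
Tfrc 3′ UTR, chr16:32631219-32631247, plus strand: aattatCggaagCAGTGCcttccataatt
Tfrc 3′ UTR, chr16:32631598-32631626, plus strand: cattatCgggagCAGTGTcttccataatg
Tfrc 3′ UTR, chr16:32631663-32631691, plus strand: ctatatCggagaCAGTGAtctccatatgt
Tfrc 3′ UTR, chr16:32631710-32631738, plus strand: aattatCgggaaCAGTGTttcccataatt
Fth1 5′ UTR, chr19:9982732-9982760, plus strand: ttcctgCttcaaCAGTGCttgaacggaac
Ftl1 5′ UTR, chr7:45459779-45459807, minus strand: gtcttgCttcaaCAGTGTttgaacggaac
Slc40a1 5′ UTR, chr1:45925465-45925493, minus strand: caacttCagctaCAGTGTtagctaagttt
Slc11a2 3′ UTR, chr15:100395153-100395181, minus strand: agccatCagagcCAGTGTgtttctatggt

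The site of Slc11a2, in the longer of its main transcripts, had 4 of 5 upper pairs and 1 of 5 lower pairs by this strict count, so its stem was incomplete. Other matches to the same letters stood in the 3′ UTRs of both main Slc11a2 transcripts. They had at most 3 of 5 upper and 2 of 5 lower pairs, so the site shown led in upper pairs only. The letters searched were a C, any 5 bases, CAGTG and any further base, on the sense strand only, with overlapping matches counted. For the share over all genes each gene's leading transcript was used. Letters alone were common. They stood in 808 of 10261 genes with a 5′ UTR of at least 30 nt (7.87%) and in 3766 of 10763 genes with such a 3′ UTR (35.0%). With the stem required, 8 genes remained for the 3′ UTR, of which Tfrc alone had at least 4 sites. By this count the 5 other members held no full site in the transcripts searched. A match describes letters and says nothing of binding in these cells.

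Levels are in TPM, a unit which corrects for transcript length and adds up to 1000000 in a library, so read depth is unknown. The libraries recovered short transcripts unevenly. Taking all transcripts with 5 TPM or more, the shortest 1 percent ended at a length here called the length floor, which was 503, 491 and 580 nt in cerebellar IL-34 cells and between 592 and 669 nt in the other 9. In the cerebellar ligand comparison, tested genes had a median log2 fold change of 0.13 at 800 to 1000 nt, where the ferritin transcripts lie, and -0.15 at 4000 to 5000 nt, where Tfrc lies. The group and its length floor cannot be told apart for cerebellar IL-34 cells. Summed over 10 microglial markers the libraries held 5087 to 5838 TPM, against at most 1.26 TPM for 4 neuronal markers and at most 1.37 TPM for 6 erythroid markers, 3 of which were at 0 in every library. The 7 border macrophage markers summed to 1987 to 2668 TPM, the largest sum after that of the microglial markers. Markers of the oligodendrocyte lineage summed to 42.6 to 81.1 TPM, of choroid plexus to 0.467 to 59.2 TPM, of astrocytes to 14.3 to 31.7 TPM and of mesenchymal cells to at most 11.9 TPM. In bulk samples fewer cells of a type and less RNA per cell cannot be told apart.

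**Figure D1:**
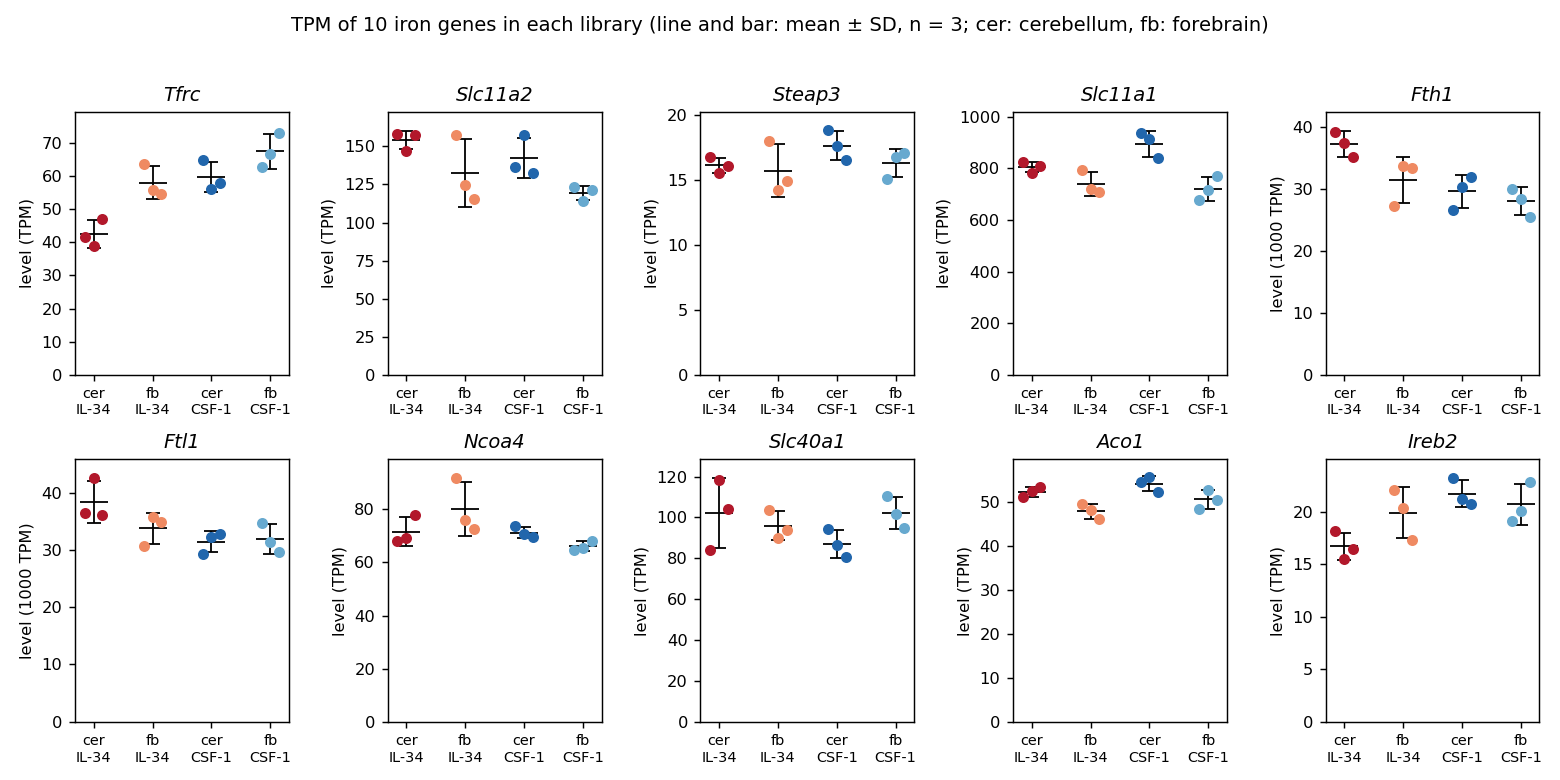
TPM of the 10 genes in each library (units of 1000 TPM for Fth1 and Ftl1), with the groups on the horizontal axis; points are libraries and the line and bar give the mean ± SD (n = 3). The 3 libraries of cerebellar IL-34 cells have the lowest Tfrc levels, at 38.8 to 47.2 TPM, and the highest Fth1 levels, at 35060 to 39197 TPM.

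Tfrc was lower and Fth1 was higher with IL-34 than with CSF-1 in cerebellar cells, and Ireb2 was lower. These were 3 of 10 members, 1 higher and 2 lower, where 12.8% of all tested genes were called (3% higher and 9.82% lower). In forebrain cells limma called 0 of 10 members, where 1.2% of all genes were called, and 2 of 10 had an unadjusted p under 0.05, where 14.2% of all genes did. Between regions, Tfrc was lower in cerebellum than in forebrain with IL-34, and Slc11a1 was higher in cerebellar CSF-1 cells. The other 6 members, which include the exporter gene Slc40a1, were called in none of the 6 comparisons.

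Tfrc encodes the transferrin receptor, the main door for iron (ENSMUSG00000022797, chromosome 16, 32608920 to 32632794, plus strand). It was at 41.7, 38.8 and 47.2 TPM in cerebellar IL-34 cells and at 63.8, 56.0 and 54.6 TPM in forebrain IL-34 cells. With CSF-1 it was at 64.9, 56.3 and 58.1 TPM in cerebellum and at 62.8, 66.6 and 73.2 TPM in forebrain. The 3 libraries of cerebellar IL-34 cells lay below all the others, the next 2 groups overlapped each other, and forebrain CSF-1 cells held the highest library. The means were 42.6 ± 4.23, 58.1 ± 5.01, 59.8 ± 4.56 and 67.5 ± 5.25 TPM in the same order (SD, n = 3 each).

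In cerebellum the Tfrc difference between IL-34 and CSF-1 was -0.48 on the log2 scale (SE 0.09, limma adjusted p = 0.0116). As the mean of both regions it was -0.35 (SE 0.07, limma adjusted p = 0.00763), where 13.4% of all genes were called. In forebrain alone it was -0.21 (SE 0.09), with overlapping libraries, and it was not called (limma adjusted p = 0.326). The interaction of region and ligand was -0.27 (95% interval -0.56 to 0.02) and was not called either (limma adjusted p = 0.436), so the ligand difference was not shown to differ between regions. With IL-34, Tfrc was lower in cerebellum than in forebrain, with a difference of -0.44 on the log2 scale (SE 0.09, limma adjusted p = 0.0108), where 13.5% of all genes were called, and with CSF-1 the difference of -0.17 was not called (limma adjusted p = 0.296).

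Tfrc moved with the length floor of the libraries. In each of the 4 groups the library with the highest floor also had the highest Tfrc level of its group, at 47.2, 63.8, 64.9 and 73.2 TPM. With the floor as a covariate the cerebellar ligand difference was -0.22 (limma adjusted p = 0.335) and the region difference with IL-34 was -0.11 (limma adjusted p = 0.656), both no longer called. The mean ligand difference of both regions was -0.23 and stayed called (limma adjusted p = 0.022). Over transcripts of 1000 nt or more the cerebellar ligand difference was -0.45 (limma adjusted p = 0.000846), and with each library's length trend removed it was -0.32 (limma adjusted p = 0.0158). Over all 11 other settings its limma adjusted p ran between 0.000846 and 0.335, and 10 kept the call. Without cerebellum IL-34 replicate 2 it was not called (limma adjusted p = 0.0563), the only such case of 12.

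**Figure D2:**
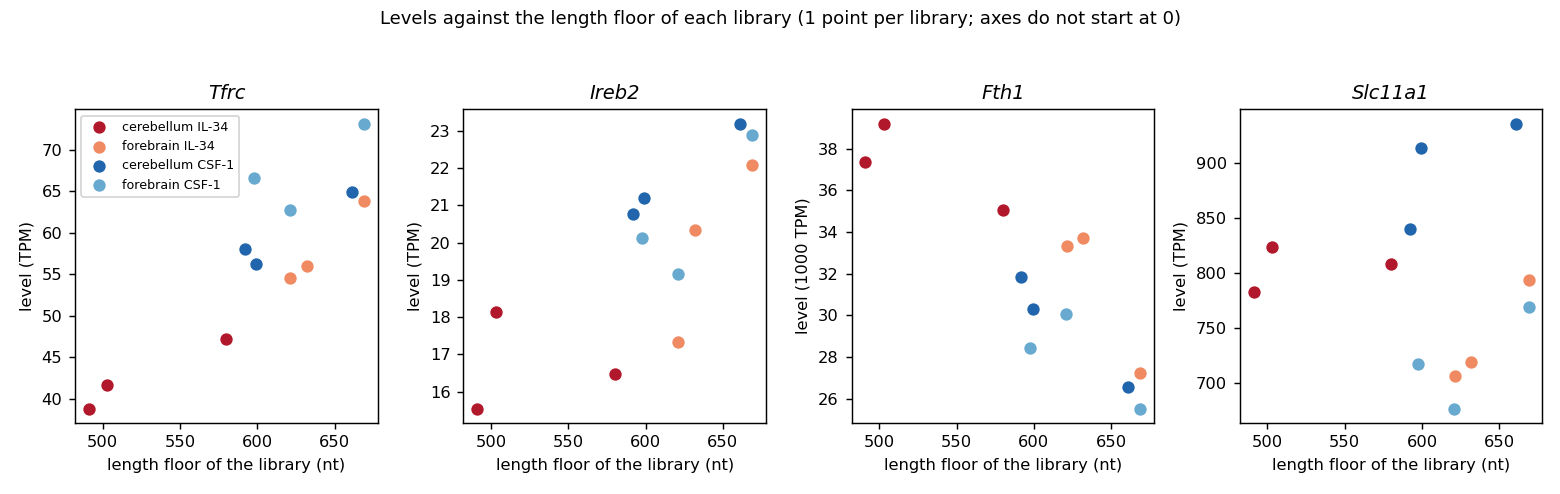
Levels of Tfrc, Ireb2, Fth1 and Slc11a1 on the vertical axis against the length floor of each library in nt, 1 point per library and 1 colour per group. The cerebellar IL-34 libraries stand at floors of 491 to 580 nt, and in each group the library with the highest floor has the highest Tfrc and the lowest Fth1 level.

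Slc11a2 encodes the divalent metal transporter DMT1, which carries iron out of the endosome (chromosome 15, 100387898 to 100425072, minus strand). It was at 158, 147 and 157 TPM in cerebellar IL-34 cells and at 158, 124 and 115 TPM in forebrain IL-34 cells. In the CSF-1 libraries it was at 137, 157 and 133 TPM in cerebellum and at 123, 114 and 121 TPM in forebrain. The cerebellar groups overlapped each other, and with CSF-1 all cerebellar libraries lay above all forebrain libraries. That region difference was 0.24 on the log2 scale and was not called (limma adjusted p = 0.189).

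The Slc11a2 transcripts of 1000 nt or more differ in whether they hold the site shown above. A coding transcript of 709 nt, without that site, had a higher mean over the 12 libraries (29.6 TPM) than the transcript with it (23.9 TPM). The transcript with the site, 4415 nt long, was at 27.6, 27.3 and 27.6 TPM in cerebellar IL-34 cells and at 25.3, 21.5 and 22.4 TPM in forebrain IL-34 cells. CSF-1 libraries had it at 23.7, 25.3 and 22.9 TPM in cerebellum and at 19.1, 21.5 and 22.5 TPM in forebrain. Its levels in cerebellar IL-34 cells lay above all other libraries. The transcript of 3025 nt, without that site, was at 68.9 ± 0.436, 71.3 ± 5.46, 68.3 ± 1.86 and 66.1 ± 3.25 TPM in cerebellar IL-34 cells, forebrain IL-34 cells, cerebellar CSF-1 cells and forebrain CSF-1 cells (SD, n = 3 each). Its own 3′ UTR held other matches to the letters, with up to 3 of 5 upper and 2 of 5 lower pairs. The ratio of the transcript with the site to the one of 3025 nt was 0.398 to 0.401 in cerebellar IL-34 cells and 0.284 to 0.370 in the other 9 libraries. This is a description with no test, because transcripts were not fitted one by one, and the ratio was chosen after its values were seen. Transcripts under 1000 nt made up between 22.9 and 40.4% of the gene's TPM.

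Steap3, which encodes the endosomal ferrireductase, was the lowest member together with Ireb2. It averaged 16.1 ± 0.587 TPM in cerebellar IL-34 cells, 15.7 ± 2.01 in forebrain IL-34 cells, 17.6 ± 1.14 in cerebellar CSF-1 cells and 16.3 ± 1.09 in forebrain CSF-1 cells (SD, n = 3 each). All groups overlapped, the cerebellar ones narrowly, with 15.6 to 16.7 TPM for IL-34 and 16.5 to 18.8 TPM for CSF-1. Its ligand difference in cerebellum was -0.12 (95% interval -0.33 to 0.09, limma adjusted p = 0.409).

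Slc11a1 encodes NRAMP1, which moves divalent metals out of the phagosome of macrophages (ENSMUSG00000026177, chromosome 1, 74375195 to 74386062, plus strand). It was at 823, 783 and 808 TPM in cerebellar IL-34 cells and at 794, 719 and 707 TPM in forebrain IL-34 cells. Under CSF-1 its level was 936, 913 and 840 TPM in cerebellum and 677, 717 and 770 TPM in forebrain. All 3 cerebellar CSF-1 libraries lay above every other library, and the forebrain groups overlapped each other.

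With CSF-1, Slc11a1 was higher in cerebellum than in forebrain by 0.31 on the log2 scale (SE 0.06, limma adjusted p = 0.0138), the only member of 10 called there, where 6.71% of all genes were called. With IL-34 the region difference was 0.12 (limma adjusted p = 0.218). The ligand difference in cerebellum was -0.15 without overlap and was not called (limma adjusted p = 0.124), and the interaction was -0.19 (95% interval -0.39 to 0.00, limma adjusted p = 0.421). The leading transcript, of 2315 nt, held 63.1 ± 0.564% of the gene's TPM in cerebellar CSF-1 cells and 68.1 ± 2.29% in forebrain CSF-1 cells (SD, n = 3 each). With this transcript alone the region difference was 0.20 and was not called (limma adjusted p = 0.124). The call was also lost without cerebellum CSF-1 replicate 1 (limma adjusted p = 0.0545) or replicate 2 (0.0582), without forebrain CSF-1 replicate 1 (0.058), and when only the libraries of the 2 groups were fitted (0.0581), while 10 of 12 other settings kept it.

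Other cell markers moved with the region. With CSF-1 the 5 choroid plexus markers summed to 22.1 to 39.3 TPM in cerebellum and 0.467 to 0.700 TPM in forebrain, and the 7 astrocyte markers to 16.7 to 19.1 TPM in cerebellum and 29.02 to 31.7 TPM in forebrain. The 10 microglial markers summed to 5574 to 5838 TPM in cerebellum and 5087 to 5444 TPM in forebrain, so they were higher in cerebellum without overlap, as Slc11a1 was. Their part in the Slc11a1 result was not tested.

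Fth1 and Ftl1 encode the heavy and light chains of ferritin, and they were among the most abundant messages of these cells. Among all genes of a library Ftl1 ranked between 1 and 3 and Fth1 between 2 and 5. Together they held 7.57, 7.99 and 7.11% of all TPM in cerebellar IL-34 cells and 5.79, 6.94 and 6.82% in forebrain IL-34 cells. With CSF-1 they held 5.58, 6.26 and 6.46% in cerebellum and 6.47, 5.97 and 5.51% in forebrain. The cerebellar IL-34 libraries lay above all the others.

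Fth1 has a single transcript in the table, of 929 nt (ENSMUSG00000024661, chromosome 19, 9980598 to 9985098, plus strand). It was at 39197, 37355 and 35060 TPM in cerebellar IL-34 cells and at 27216, 33731 and 33330 TPM in forebrain IL-34 cells. With CSF-1 it was at 26555, 30323 and 31836 TPM in cerebellum and at 30040, 28414 and 25524 TPM in forebrain. Cerebellum with IL-34 stood above the other groups without overlap, and those 3 groups overlapped one another.

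The ligand difference of Fth1 in cerebellum was 0.33 on the log2 scale (SE 0.10, limma adjusted p = 0.0474), and as the mean of both regions 0.25 (SE 0.07, limma adjusted p = 0.0372). That mean kept its call in 4 of 12 fits that left out 1 library and in 5 of 9 other settings, and with quantile normalization it was 0.12 (limma adjusted p = 0.450). In forebrain it was 0.16 and was not called (limma adjusted p = 0.508). The cerebellar call lay close to the threshold. It was kept in 2 of 12 fits that left out 1 library, with limma adjusted p up to 0.162 and differences of 0.26 to 0.39, and in 5 of 10 other settings. With the length floor as a covariate the difference was 0.08 (limma adjusted p = 0.807), and with the length trend removed it was 0.13 and was called (limma adjusted p = 0.0357). In each of the 4 groups the library with the highest length floor had the lowest Fth1 level, at 35060, 27216, 26555 and 25524 TPM.

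Ftl1 (ENSMUSG00000050708, chromosome 7, 45457944 to 45459884, minus strand) was at 36456, 42563 and 36041 TPM in cerebellar IL-34 cells and at 30719, 35681 and 34841 TPM in forebrain IL-34 cells. In the CSF-1 libraries it was at 29278, 32319 and 32739 TPM in cerebellum and at 34685, 31329 and 29617 TPM in forebrain. Cerebellum with IL-34 again lay above the rest, without overlap. Its ligand difference in cerebellum was 0.28 (SE 0.09), just outside the threshold (limma adjusted p = 0.054), and in forebrain it was 0.08 (limma adjusted p = 0.749). After median-of-ratios scaling the cerebellar difference was 0.39 and was called (limma adjusted p = 0.0454), while Ireb2 was not (limma adjusted p = 0.0929), so that 2 members were higher and 1 lower there.

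The ferritin transcripts are all short, and those of Ftl1 changed places between libraries. The coding transcript of 968 nt and a transcript of 943 nt, annotated as a target of nonsense-mediated decay, share 922 identical nt. The coding one alone holds 46 nt, of which 45 are its 5′ end, and the decay one alone holds 21 nt. Both hold the iron-responsive element shown above. The decay transcript was at 136, 146 and 6894 TPM in cerebellar IL-34 cells, which was 0.374, 0.343 and 19.1% of the gene, against 16671 to 21630 TPM and 56.3 to 62.1% in the other 9 libraries. The coding transcript was at 35823, 37016 and 28853 TPM in cerebellar IL-34 cells and at 11877 to 13880 TPM in the other 9. The groups are far apart for each transcript taken alone, and the library with 19.1% is the one whose length floor, 580 nt, lies nearest to the others. The part of the length floor in this split was not tested.

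Added together, the coding and the decay transcript were at 35959, 37162 and 35746 TPM in cerebellar IL-34 cells, against 29092 to 35510 TPM in the other 9 libraries. The split between transcripts that share most of their sequence thus moved far more than their sum. Another Ftl1 transcript, of 503 nt, was at 5031 TPM in cerebellum IL-34 replicate 2 and was listed at 0 in the other 11 libraries. Without it that library's Ftl1 level is close to those of replicates 1 and 3. The shortest transcript of any member with a value above 0 had 503 nt, and 17 of the 58 member transcripts were listed at 0 throughout, the longest of them 638 nt. A value of 0 for a short transcript is not read as absence.

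**Figure D3:**
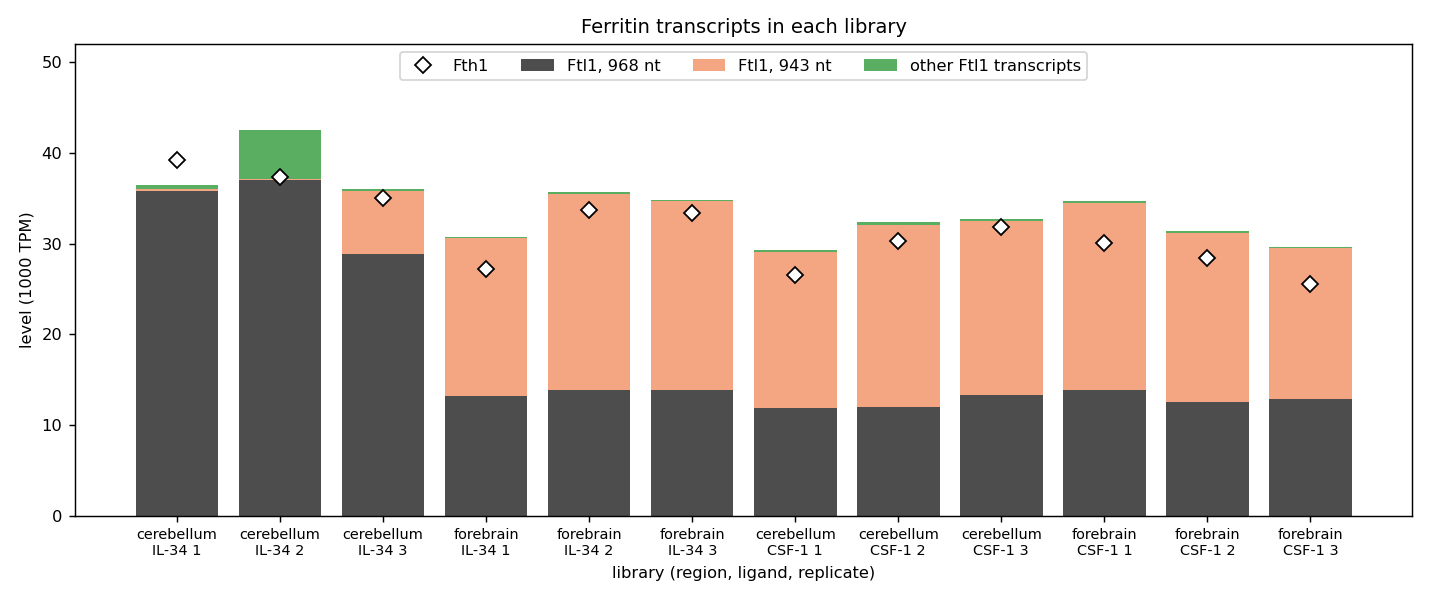
Levels of the ferritin transcripts in units of 1000 TPM on the vertical axis for each of the 12 libraries; stacked bars give the coding (968 nt), the decay (943 nt) and the other Ftl1 transcripts, and diamonds give Fth1. The decay transcript holds 56.3 to 62.1% of Ftl1 in 9 libraries and at most 19.1% in the 3 of cerebellar IL-34 cells, while the full bars differ much less.

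The ratio of heavy to light chain messages varied little. Fth1 over Ftl1 was 1.08, 0.878 and 0.973 in cerebellar IL-34 cells and 0.886, 0.945 and 0.957 in forebrain IL-34 cells. With CSF-1 it was 0.907, 0.938 and 0.972 in cerebellum and 0.866, 0.907 and 0.862 in forebrain. The cerebellar ligand groups overlapped fully. IL-34 minus CSF-1 over both regions was 0.0435 (exact permutation p = 0.195, two-sided, labels permuted within regions, 400 arrangements). Within cerebellum the exact permutation p was 0.6 and within forebrain 0.2, where 0.1 is the smallest that 3 against 3 libraries can give. Without cerebellum IL-34 replicate 2, the library with the 503-nt Ftl1 transcript, the difference over both regions was 0.0679 (exact permutation p = 0.02), and with any other library left out the exact permutation p was 0.105 to 0.475.

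Read from the leading transcripts alone, the same ratio was 1.09, 1.01 and 1.22 in cerebellar IL-34 cells and 1.99 to 2.53 in the other 9 libraries. Fth1 has 1 transcript, so the gap is that of the Ftl1 split, and the gene sums do not show it. Tfrc per 1000 TPM of Fth1, a measure that sets uptake beside storage, was 1.15 ± 0.170 in cerebellar IL-34 cells, 1.88 ± 0.403 in forebrain IL-34 cells, 2.04 ± 0.349 in cerebellar CSF-1 cells and 2.43 ± 0.396 in forebrain CSF-1 cells (SD, n = 3 each). It joins a transcript of 4890 nt to one of 929 nt and was given no test.

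Ferritin has many processed copies in the mouse genome. The table held 12 other genes with symbols beginning Fth or Ftl, and only 2 of them, Fth-ps2 and Fthl17e, were above 0 in any library, at no more than 7.55 TPM. One of the 12 is a second identifier with the symbol Fth1, which was at 0 throughout. How reads were shared between Fth1 and such copies cannot be read from these values.

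Ncoa4 encodes the cargo receptor that delivers ferritin to lysosomes for breakdown (chromosome 14, 32159865 to 32179855, plus strand). It was at 68.0, 69.1 and 77.8 TPM in cerebellar IL-34 cells and at 91.8, 76.0 and 72.6 TPM in forebrain IL-34 cells. CSF-1 libraries had it at 73.7, 70.6 and 69.4 TPM in cerebellum and at 64.8, 65.4 and 68.1 TPM in forebrain. In forebrain all IL-34 libraries lay above all CSF-1 libraries, as did those of 5.9% of all genes in that direction, and in cerebellum the ligand groups overlapped.

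The forebrain difference was 0.27 on the log2 scale (SE 0.08) with an unadjusted limma p of 0.00889, and it was not called (limma adjusted p = 0.163). It was called over transcripts of 1000 nt or more (0.24, limma adjusted p = 0.0156), after median-of-ratios scaling (0.31, limma adjusted p = 0.0357) and with the length trend removed (0.32, limma adjusted p = 0.0186). Over transcripts of 1000 nt or more the cerebellar difference was 0.18 and was called too (limma adjusted p = 0.0323), as was the mean of both regions (0.21, limma adjusted p = 0.00156).

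Slc40a1 encodes ferroportin, the iron exporter (ENSMUSG00000025993, chromosome 1, 45908068 to 45926523, minus strand). It was at 83.9, 118 and 104 TPM in cerebellar IL-34 cells and at 104, 90.1 and 93.8 TPM in forebrain IL-34 cells. Under CSF-1 its level was 94.2, 86.5 and 80.7 TPM in cerebellum and 111, 102 and 94.9 TPM in forebrain. Only the cerebellar and forebrain CSF-1 groups did not overlap, with cerebellum lower, and their difference of -0.23 was not called (limma adjusted p = 0.258).

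The widest spread of Slc40a1 within a group was that of cerebellar IL-34 cells. There 14.98 TPM of replicate 2 and 2.04 TPM of replicate 1 came from a transcript of 505 nt, annotated as processed and not coding, listed at 0 in the other 10 libraries. The coding transcript of 3370 nt was at 79.5, 99.9 and 101 TPM in those 3 libraries. The ligand difference of the gene was 0.21 in cerebellum (95% interval -0.04 to 0.46, limma adjusted p = 0.227) and -0.09 in forebrain (95% interval -0.34 to 0.16, limma adjusted p = 0.799).

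Aco1 encodes iron regulatory protein 1, which is a cytosolic aconitase when it holds an iron-sulfur cluster (ENSMUSG00000028405, chromosome 4, 40143081 to 40198338, plus strand). It was the steadiest member, with a coefficient of variation of 5.50% over the 12 libraries. It was at 51.1, 52.5 and 53.4 TPM in cerebellar IL-34 cells and at 49.5, 48.1 and 46.0 TPM in forebrain IL-34 cells. With CSF-1 it was at 54.4, 55.6 and 52.3 TPM in cerebellum and at 48.5, 52.8 and 50.5 TPM in forebrain. With IL-34 the cerebellar libraries lay above the forebrain libraries, by 0.13 on the log2 scale, and this was not called (limma adjusted p = 0.145). Over transcripts of 1000 nt or more it was 0.20 and was called (limma adjusted p = 0.00971).

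Ireb2 encodes iron regulatory protein 2, which is broken down when iron is plentiful (ENSMUSG00000032293, chromosome 9, 54863789 to 54912530, plus strand). It was at 18.1, 15.5 and 16.5 TPM in cerebellar IL-34 cells and at 22.1, 20.4 and 17.3 TPM in forebrain IL-34 cells. In the CSF-1 libraries it was at 23.2, 21.2 and 20.8 TPM in cerebellum and at 19.2, 20.1 and 22.9 TPM in forebrain. In cerebellum the IL-34 libraries lay below the CSF-1 libraries, and the other 3 groups overlapped.

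The cerebellar ligand difference of Ireb2 was -0.36 on the log2 scale (SE 0.10, limma adjusted p = 0.0426), and in forebrain it was -0.06 (limma adjusted p = 0.870). The interaction was -0.30 (95% interval -0.62 to 0.01) and was not called (limma adjusted p = 0.426). The single transcript has 5770 nt, and all genes of 5000 to 6000 nt had a median of -0.18 in this comparison. With the length trend removed the difference was -0.17, and it was not called (limma adjusted p = 0.173). The call was kept in 4 of 12 fits that left out 1 library and in 4 of 11 other settings.

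Side by side, the cerebellar ligand comparison separated the libraries of 5 members without overlap, Fth1 and Ftl1 upwards and Tfrc, Slc11a1 and Ireb2 downwards, where 36.2% of all tested genes did so (8.21% upwards and 27.9% downwards). The median log2 fold change of the 10 members was -0.02, against -0.10 for all tested genes. In forebrain 1 member, Ncoa4, did so, against 18.5% of all genes, and the members' median was -0.01, against -0.04 for all tested genes. The interaction called 0 of 10 members with limma, where 0.145% of all genes were called, and 0 had an unadjusted p under 0.05, where 12.1% of all genes did. With IL-34 the regions separated 4 members, against 32.9% of all genes, and with CSF-1 also 4, against 29.4%. The 6 comparisons share libraries and are not independent of one another.

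Markers moved with the cerebellar ligand comparison too. The 10 microglial markers summed to 5116 to 5383 TPM with IL-34 and 5574 to 5838 TPM with CSF-1, lower with IL-34 without overlap, as Tfrc, Ireb2 and Slc11a1 were. The 7 border macrophage markers summed to 2408 to 2668 TPM with IL-34 and 1987 to 2243 TPM with CSF-1, higher without overlap, and most of that sum was Ms4a7, at a mean of 2112 TPM with IL-34 and 1776 TPM with CSF-1. Not every marker of that list was higher. Siglec1 was at a mean of 39.9 TPM with IL-34 and 66.2 TPM with CSF-1 and Mrc1 at 25.5 TPM with IL-34 and 29.7 TPM with CSF-1, both lower without overlap. The part of these markers in the differences was not tested.

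**Figure D4:**
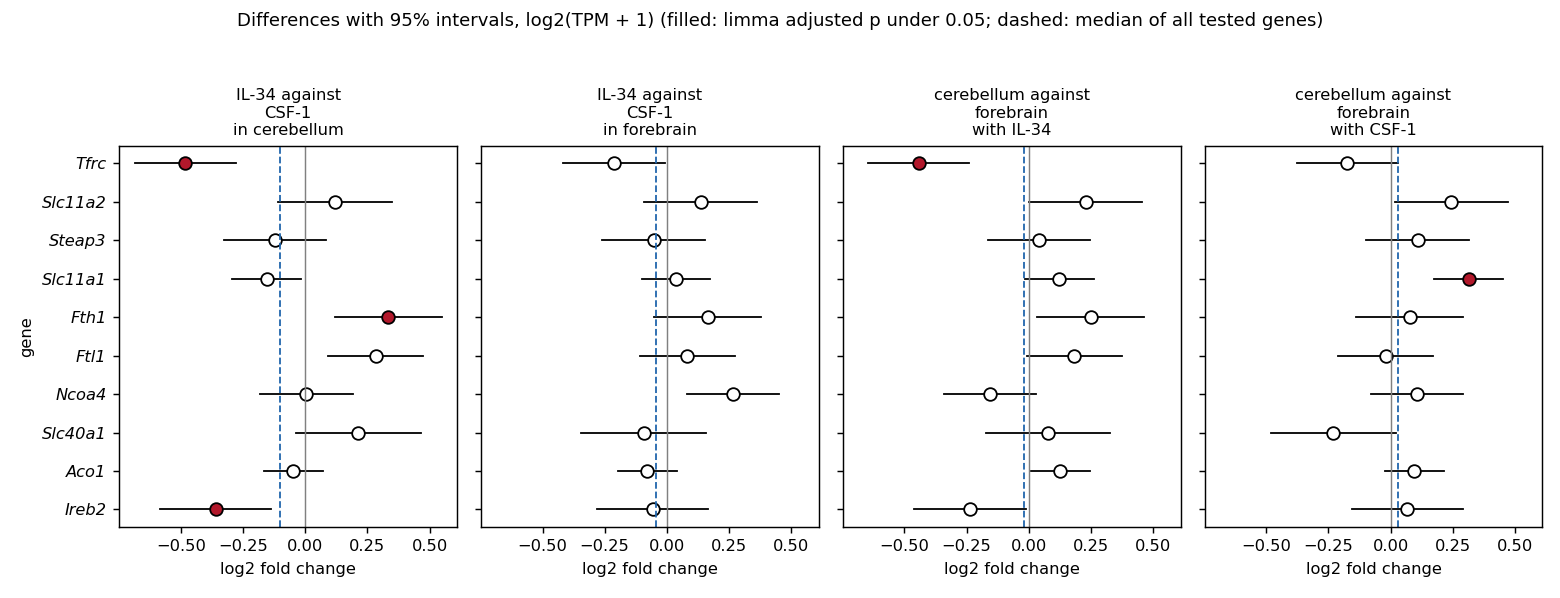
Log2 fold changes of the 10 genes on the log2(TPM + 1) scale in 4 comparisons, with 95% intervals; filled points have a limma adjusted p under 0.05, and the dashed line is the median of all tested genes. Tfrc is lower with IL-34 in cerebellum (-0.48) and lower in cerebellum than in forebrain with IL-34 (-0.44), and in forebrain no ligand difference is filled.

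**Figure D5:**
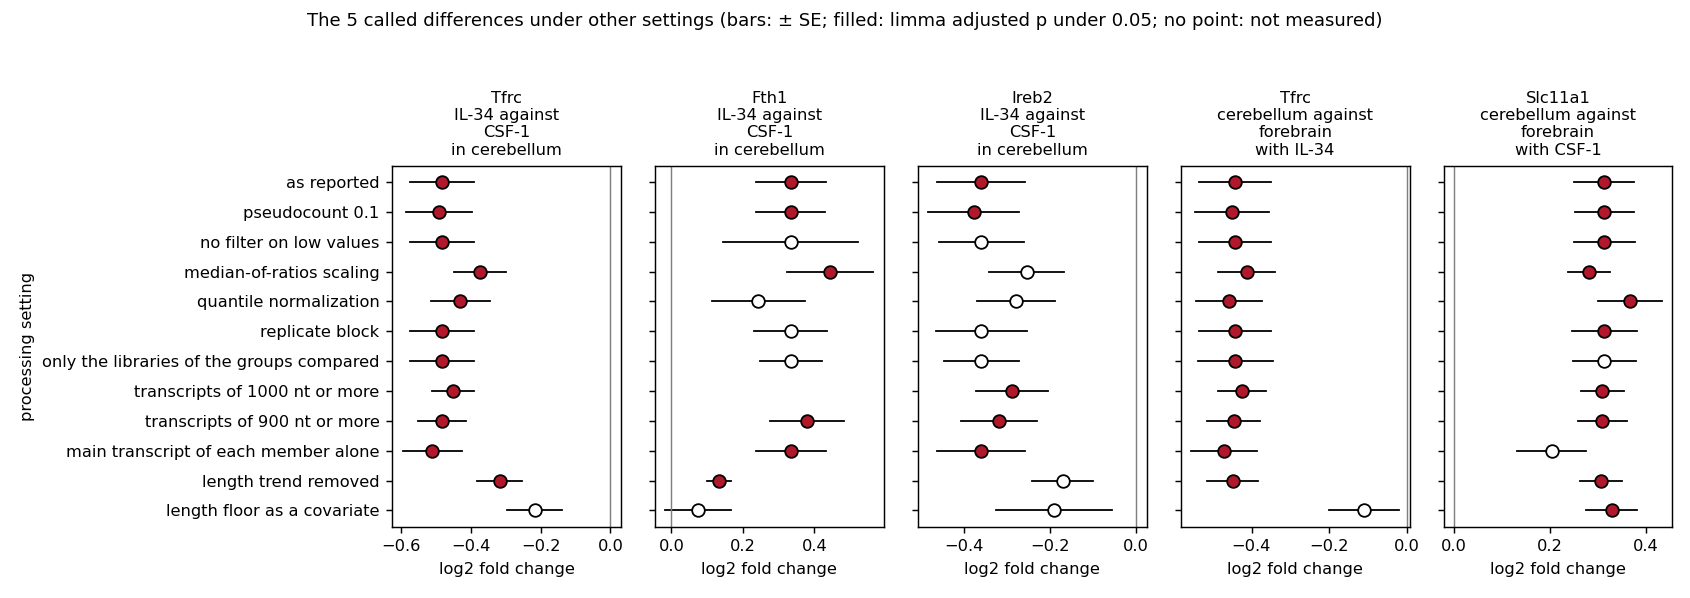
Log2 fold changes ± SE of 5 called differences, within 1 region or with 1 ligand, under the reported and 11 other settings, which run down the page. Filled points have a limma adjusted p under 0.05, and the 2 calls for the mean of both regions are not shown. Tfrc is filled under all but the length floor as a covariate, while Fth1 and Ireb2 lose the call under several settings.

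The wider iron genes were described by 7 lists with 68 genes, of which 55 were tested. With IL-34 against CSF-1 in cerebellum 1 of 55 was higher and 4 were lower, where 12.8% of all tested genes were called. In forebrain 0 were higher and 1 was lower, where 1.2% of all genes were called, and as the mean of both regions 2 and 4, where 13.4% were. Between cerebellum and forebrain 2 of 55 were higher and 8 lower with IL-34, where 13.5% of all genes were called, and 2 and 2 with CSF-1, where 6.71% were. The interaction called 0 of 55, where 0.145% of all genes were called. The median over the 55 was -0.04 for the cerebellar ligand difference, against -0.10 for all tested genes. The hepcidin gene Hamp, whose hormone brings ferroportin down, was listed at 0 in all 12 libraries, and the ferroxidase gene Heph was at most 0.364 TPM.

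Of the list of other uptake genes, 1 was called for the ligand in both regions. Slc39a14 encodes ZIP14, which takes up iron that is not bound to transferrin, besides zinc and manganese. It averaged 37.6 ± 3.76 TPM in cerebellar IL-34 cells and 64.7 ± 1.99 TPM in cerebellar CSF-1 cells (SD, n = 3 each). In forebrain it averaged 31.2 ± 3.29 TPM with IL-34 and 47.5 ± 2.59 TPM with CSF-1 (SD, n = 3 each). The IL-34 libraries lay below the CSF-1 libraries in both regions, with differences of -0.77 in cerebellum (limma adjusted p = 0.00111) and -0.60 in forebrain (limma adjusted p = 0.00927). The cerebellar call was lost with the length floor as a covariate (limma adjusted p = 0.0795). The forebrain call was lost with only the groups compared (limma adjusted p = 0.0998) and without forebrain IL-34 replicate 2 (limma adjusted p = 0.0596). With CSF-1 it was higher in cerebellum by 0.44 (limma adjusted p = 0.0143). Of the 9 tested genes of this list it was the only one called within a region, and Trf, the transferrin gene, was higher with IL-34 as the mean of both regions (0.22, limma adjusted p = 0.0265). Trf kept the call in 7 of 12 fits that left out 1 library and in 8 of 10 other settings.

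Lcn2 encodes lipocalin-2, which binds iron-carrying siderophores. It was at 7.38, 8.17 and 7.67 TPM in cerebellar IL-34 cells, against 27.8, 26.9 and 24.2 TPM in forebrain IL-34 cells. The regions did not overlap, with differences of -1.64 with IL-34 (limma adjusted p = 2.48e-06) and -1.14 with CSF-1 (limma adjusted p = 5.81e-05). Slc22a17, reported as a receptor of lipocalin-2, was at 5.18 ± 0.215 TPM in cerebellar IL-34 cells and 3.33 ± 0.640 TPM in forebrain IL-34 cells (SD, n = 3 each; 0.52, limma adjusted p = 0.0195). Slc22a17 kept the call in 8 of 12 fits that left out 1 library and in 9 of 11 other settings. It was lost with the length floor as a covariate and with only the groups compared. Cp, the ferroxidase ceruloplasmin, was at 1.95 ± 0.517 TPM in cerebellar IL-34 cells and 4.68 ± 1.59 TPM in forebrain IL-34 cells (SD, n = 3 each; -0.92, limma adjusted p = 0.023). Cp kept the call in 8 of 12 fits that left out 1 library and in 8 of 11 other settings, and its difference was smallest, at -0.39, over transcripts of 1000 nt or more. Astrocyte markers summed to 14.3 to 15.4 TPM in the same cerebellar libraries and 28.9 to 31.6 TPM in the forebrain libraries. Mesenchymal markers (3.06 to 3.19 against 7.89 to 10.1 TPM) and neuronal markers (0.249 to 0.413 against 0.572 to 0.839 TPM) were also lower in cerebellum. Choroid plexus markers (14.8 to 59.2 against 0.689 to 1.43 TPM) and oligodendrocyte lineage markers (64.6 to 70.1 against 43.3 to 48.1 TPM) were higher, as Slc22a17 was. The part of these markers in the results was not tested.

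Among the genes of heme uptake, breakdown and export, 2 of 9 tested genes, Hmox1 and Lrp1, were lower and 0 higher with IL-34 in cerebellum, where 9.82% of all genes were called lower. Lrp1 kept the call in 4 of 12 fits that left out 1 library and in 5 of 11 other settings, and it lies outside the naming rule and was chosen after its values were seen. Hmox1, the heme oxygenase that frees iron from heme, averaged 1562 ± 109 TPM in cerebellar IL-34 cells, 1870 ± 78.0 in forebrain IL-34 cells, 2111 ± 125 in cerebellar CSF-1 cells and 2088 ± 119 in forebrain CSF-1 cells (SD, n = 3 each). It was lower with IL-34 in cerebellum (-0.44, limma adjusted p = 0.00461) and as the mean of both regions (-0.30, limma adjusted p = 0.00306), and lower in cerebellum than in forebrain with IL-34 (-0.26, limma adjusted p = 0.0253). The cerebellar ligand call of Hmox1 was lost with the length floor as a covariate (limma adjusted p = 0.1465), while the mean of both regions stayed called. With IL-34, Blvra, the biliverdin reductase gene, was lower in cerebellum than in forebrain (-0.45, limma adjusted p = 0.00444; 0.014 over its transcripts of 1000 nt or more), and so were Hmox2 (-0.20, limma adjusted p = 0.0218) and Flvcr1 (-0.29, limma adjusted p = 0.00944). With Hmox1 these were 4 of the 9 tested genes of the heme list, and 0 were higher, where 13.5% of all genes were called in either direction. In this region comparison Hmox1 and Hmox2 each kept the call in 8 of 12 fits that left out 1 library and in 7 of 11 other settings, and with the length floor as a covariate limma called none of the 4. Hmox2 was also lower in cerebellum than in forebrain with CSF-1 (-0.27, limma adjusted p = 0.00757). That call was kept in 12 of 12 fits that left out 1 library and in 11 of 12 other settings.

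In the list of mitochondrial iron and iron-sulfur clusters, 1 of 19 tested genes was higher and 1 lower in the cerebellar ligand comparison, where 3% of all genes were called higher and 9.82% lower. Iscu, the scaffold on which clusters are built, was higher with IL-34 (0.42, limma adjusted p = 0.00214), but over its transcripts of 1000 nt or more the difference was -1.12. Its call was lost there and with the length floor as a covariate (limma adjusted p = 0.1097). Nfs1, the cysteine desulfurase that supplies the sulfur, was lower (-0.28, limma adjusted p = 0.0204) and kept the call in 9 of 12 fits that left out 1 library and 6 of 11 other settings. In the heme synthesis list Urod was lower in cerebellum than in forebrain with IL-34 (-0.25, limma adjusted p = 0.0212), and 0 of its 8 tested genes were called for the ligand. Urod kept the call in 8 of 12 fits that left out 1 library and in 9 of 11 other settings. It was lost with the length floor as a covariate and with only the groups compared. Of 6 tested sensors and regulators only Bach1, a heme-sensing repressor, was called, higher in cerebellar CSF-1 cells (0.48, limma adjusted p = 0.0427). It kept the call in 4 of 12 fits that left out 1 library and in 6 of 12 other settings. Of 3 tested genes for iron chaperones and ferritin turnover 0 were called in any comparison.

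Over the 12 libraries the genes most like Slc40a1 among 9352 with a mean of at least 5 TPM were Atxn7l3b (Pearson r = 0.885), Pde6d (0.839) and Dusp3 (0.837). Those most like Tfrc were Celf2 (Pearson r = 0.99), Calu (0.98) and Eid1 (0.979). The 12 libraries share their groups and length floors, and these values are descriptions.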

How the data were processed

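Amplified cDNA was prepared by SMART-Seq v4, per the labels' protocols. The authors deposited TPM for each transcript, and kallisto 0.43.0 and GRCm38 are named per the submitters' processing notes. The sources used here do not name the annotation release. The label for extraction speaks of human tissue, while all others say mouse. TPM gives no depth, so its precision could not be computed. Of 115879 transcripts, 114255 (98.6%) matched GENCODE M21, which gave lengths, positions and sequences.

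TPM was summed per gene. The 12419 genes reaching 1 TPM in 3 or more libraries were fitted as log2(TPM + 1) with limma 3.58.1 in R 4.3.3: 4 group means, 6 contrasts, Benjamini-Hochberg adjustment over all 12419 genes, called at 0.05. Fold changes are on that log2 scale, which understates low genes. The script was tested on simulated data. Ratios had exact permutation tests. Python 3.11.15 with numpy 2.4.6, pandas 2.3.3, scipy 1.17.1 and matplotlib 3.10.9 was used. The members and lists were chosen with earlier results of these data known. List genes are named by the 4 smallest p-values of each list among those called. Of 66 library pairs 0 were identical. Alternatives were the pseudocount, the filter, 2 scalings, a replicate block, only the groups compared, transcripts of 1000 nt or more, the length trend, the length floor, ferritin copies summed and each library left out. Transcripts of 900 nt or more, 9 libraries and leading transcripts alone were chosen after seeing the data. In the fits with leading transcripts alone, the coding and the decay transcript of Ftl1 were summed. The Fth1 to Ftl1 ratio of leading transcripts used the coding one only.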

Additional observations from a re-analysis of the deposited data

How the results depend on the processing

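Of 1380 values of the 10 genes under other settings, 1295 kept direction and side of the threshold, 50 lost the call, 35 gained one and 0 changed sign with a call. The causes were not tested, except where a setting's own construction changes the genes or libraries used. Members called with IL-34 against CSF-1 in cerebellum (3 as reported) were 1 with no filter, with quantile normalization, with the replicate block and with only the groups compared, and 0 with the length floor as a covariate. In forebrain (0 as reported) they were 1 with median-of-ratios scaling and with transcripts of at least 1000 or 900 nt, and 2 with the length trend removed. As the mean of both regions (2 as reported) they were 1 with no filter, quantile normalization or the block, and 6 with 900 nt. Between regions with IL-34 (1 as reported) they were 3 with median-of-ratios scaling, 1000 nt or 900 nt, 5 with the trend removed and 0 with the floor, and with CSF-1 (1 as reported) 0 with only the groups compared or leading transcripts alone and 3 with the trend removed. Leaving out 1 library gave 0 to 4 members for the cerebellar ligand difference, 0 to 0 in forebrain, 1 to 4 for both regions, 0 to 0 for the interaction, 1 to 2 between regions with IL-34 and 0 to 1 with CSF-1.

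All genes called for the ligand in cerebellum (1593 as reported) were 830 with no filter, 986 with the block, 778 with only the groups compared and 37 with the floor. In forebrain (149) they were 87 with no filter, 249 with median-of-ratios scaling, 83 with the block, 0 with only the groups compared, 734 with 1000 nt, 306 with the trend removed, 255 with the floor, 634 with 900 nt and 98 with the 9 libraries outside cerebellum IL-34. For both regions (1667) they were 1106 with no filter, 622 with the floor and 2528 with 900 nt, and for the interaction (18) 1 with 1000 nt, 8 with the trend removed, 10 with the floor and 0 with 900 nt. Between regions with IL-34 (1675) they were 2598 with 1000 nt and 126 with the floor, and with CSF-1 (833) 456 with only the groups compared, 1989 with 1000 nt and 1780 with 900 nt. Leaving out 1 library gave 299 to 1769, 29 to 163, 925 to 2081, 12 to 132, 838 to 1772 and 413 to 918 genes in the same order. Higher and lower calls in cerebellum were 373 and 1220 as reported, 693 and 505 with median-of-ratios scaling and 451 and 724 with quantile normalization. In forebrain they were 53 and 96, 140 and 109, and 87 and 78, and for both regions 339 and 1328, 704 and 623, and 474 and 735.

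Over transcripts of 1000 nt or more, Iscu was -1.12 for the ligand in cerebellum, -0.30 for both regions and -1.90 between regions with IL-34, and Blvra was 0.014 between regions with IL-34. As reported, the Iscu difference between regions with IL-34 was 0.30 and was called (limma adjusted p = 0.00473). The value of -1.90 was called in the opposite direction (limma adjusted p = 0.00583). The Fth1 to Ftl1 difference was 0.0185 to 0.0679 with 1 library left out. Replicate numbers were not shown to pair the libraries: 18 correlations of same-numbered deviations ran from -0.454 to 0.458, 5 were over 0.1, and 1 of 12 libraries correlated best with its own number. Between forebrain IL-34 and cerebellum CSF-1 libraries all were positive, at 0.458, 0.17 and 0.259. Libraries also differ in length floor, so these correlations cannot exclude pairing. Without read counts, levels near 0 and transcripts under about 600 nt are least certain.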
